A study of Saccharomyces cerevisiae with 4 samples.

Results

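The thiamine and vitamin B6 genes described here are 10 genes of budding yeast, Saccharomyces cerevisiae, out of 5449 genes measured: THI4, THI13, THI20, THI21 and THI6 of thiamine synthesis, THI7 of thiamine uptake, the regulators THI2 and THI3, and SNZ1 and SNO1 of vitamin B6 synthesis. They were chosen by name, and each was read from the single array probeset that carries its symbol. Both groups were cultures of strain BY4741, a haploid strain of mating type a that lacks functional HIS3, LEU2, MET15 and URA3, grown with shaking in YPD, a rich glucose medium. While growing exponentially, 2 cultures received the vehicle (the control group) and 2 were exposed to CG-1521 at 50 μM, each for 1 h; the compound inhibits histone deacetylases. Each culture was read on 1 Affymetrix array, and the 2 replicates of a group were independent biological repeats.

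Thiamine, or vitamin B1, is assembled in yeast from a thiazole ring and a pyrimidine ring that are made separately and then joined, and its diphosphate is a cofactor of enzymes that cleave carbon bonds next to a keto group. Cells that find thiamine in the medium, as in one made with yeast extract, keep most of the synthesis and uptake genes low. When thiamine runs short, the activators Thi2 and Pdc2 and the thiamine diphosphate sensor Thi3 switch these genes on. Vitamin B6 meets this pathway because the pyrimidine ring is built from vitamin B6 and a histidine of the synthase itself, and the thiazole enzyme Thi4 gives up a sulfur of its own and works with iron.

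All 10 genes lay above the array's background on all 4 arrays, as did 5438 of all 5449 genes. Background was the 95th percentile of probesets taken to be those of a second yeast species on the same array. It was between 2.42 and 2.45 on the log2 scale. The values are log2 RMA values, the probeset summaries deposited by the authors, so a difference of 1 is a doubling. They were scaled so that all arrays have nearly the same distribution, and array medians over the genes lay between 9.82 and 9.89. As a check of the strain, MET17 (also named MET15) and URA3 were below background on every array. LEU2 was below it on both control arrays and just above it, at 2.77 and 3.09, on the CG-1521 arrays. HIS3 read between 10.21 and 10.91, and the his3 allele of this strain is known to remove only part of the gene. The 5 markers of a cells were at 10.81 or more on every array. The 4 alpha-cell markers had control means of 3.62 for MF(ALPHA)1, 4.90 for STE3, 7.72 for SAG1 and 9.28 for MF(ALPHA)2, all above background. The lowest control means of the 10 genes were 5.27 for THI2, 5.73 for SNO1 and 6.14 for THI4, below those of SAG1 and MF(ALPHA)2. In this a strain a value above background therefore does not show that a gene is expressed.

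With CG-1521, 3 of the 10 genes rose: THI13, which makes the pyrimidine ring, THI20, which phosphorylates it, and THI6, which joins it to the thiazole. THI3, the sensor, fell, and the other 6 did not pass. Calls were made at a limma adjusted p under 0.05, from a linear model fitted to all 5449 genes at once. By this rule 12.9% of all genes were higher and 16.8% were lower, 29.7% in all. It also called LEU2, which is not functional in this strain, higher (0.68, limma adjusted p = 0.0488). The alpha-cell marker MF(ALPHA)1 was called lower (-0.75, limma adjusted p = 0.0377). Both had low values, and a call alone does not show that a gene is expressed. The median log2 difference was 0.47 over the 10 genes and -0.04 over all genes. The groups did not overlap in 7 of the 10 genes, 5 with treated values above and 2 below, against 72.3% of all genes, so this count is near that of the whole array. The number of calls rests on having both controls: without control replicate 1, or without control replicate 2, 0 of the 10 genes were called by limma, although 4 and 3 of them had an unadjusted p under 0.05, and over all genes the calls then dropped to 58 higher and 18 lower, and to 50 and 16. With all 4 arrays, 6 of the 10 genes had an unadjusted p under 0.05 in limma, against 2437 of all 5449 genes. The share over all genes without a control array is not given here, so these unadjusted counts do not set the 10 genes apart. When all 10928 features of the table were fitted together, 1 of the 10 genes, THI13, was called.

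**Figure D1:**
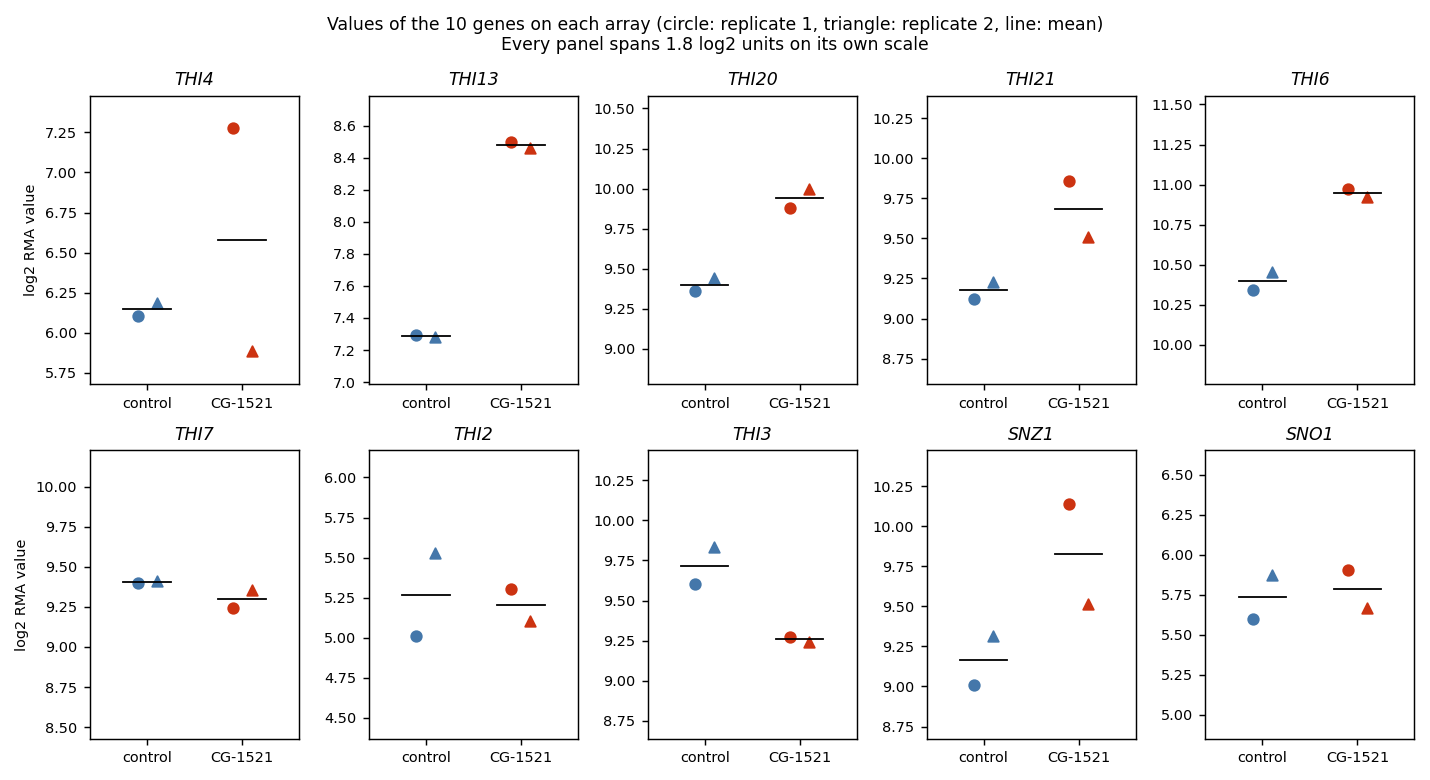
Log2 RMA values of the 10 genes in the 2 control cultures (blue) and the 2 cultures with CG-1521 (red), 1 panel per gene, with circles for replicate 1, triangles for replicate 2 and a line at the group mean. THI13, THI20 and THI6 have tight pairs with CG-1521 above the controls, THI3 has its CG-1521 pair below, and the CG-1521 pair of THI4 lies on either side of its controls.

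THI13 had the largest difference of the 10 genes. It belongs to a family with THI5, THI11 and THI12 whose near-identical enzymes make hydroxymethylpyrimidine phosphate. Its value was 7.30 and 7.28 in the control cultures and 8.50 and 8.46 with CG-1521. The groups were far apart and each pair lay close together. The log2 difference was 1.19 (SE 0.10, limma adjusted p = 0.00756), a 2.28-fold rise from 7.29 ± 0.01 to 8.48 ± 0.02 (SD, n = 2 each), and 5.03% of all genes had a larger difference in either direction. The probeset name carries the suffix for probes shared between transcripts, and THI5, THI11 and THI12 had no probeset of their own in the annotation used. This value therefore cannot be assigned to 1 copy, and which copies of the family its probes read was not checked. THI13 sits beside AAD4 and HXT15 in the R64 gene order, THI11 beside AAD10 and HXT16, THI12 beside AAD14 and SNZ2, and THI5 beside SNZ3, all of them within 9 protein-coding genes of a chromosome end.

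THI20 and THI21 encode kinases that phosphorylate the pyrimidine, and Thi20 can also break thiamine down. THI20 read 9.36 and 9.44 in the controls and 9.88 and 10.0005 with CG-1521, without overlap. It rose by 0.54 (SE 0.11, limma adjusted p = 0.0263), or 1.45-fold. THI21 read 9.12 and 9.23 in the controls, and 9.86 and 9.51 with CG-1521. Its groups did not overlap either, but the CG-1521 arrays were further apart, and the difference of 0.51 did not pass (SE 0.15, 95% interval 0.11 to 0.91, limma adjusted p = 0.0654). Without CG-1521 replicate 2 it was 0.68, and without replicate 1 it was 0.33. With an intensity trend and all 4 arrays it passed (limma adjusted p = 0.0449). THI22, a relative that is not needed for thiamine synthesis, read 10.04 and 10.29 in the controls and 10.95 and 10.75 with CG-1521, a rise of 0.69 (SE 0.14, limma adjusted p = 0.0280). The 3 relatives therefore had differences between 0.51 and 0.69, and whether they differ from each other was not tested.

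THI6 encodes the enzyme that joins the phosphorylated rings into thiamine monophosphate and also phosphorylates the thiazole. It read 10.34 and 10.46 in the controls and 10.97 and 10.92 with CG-1521, so the groups were well separated. The rise was 0.55 (SE 0.10, limma adjusted p = 0.0237), or 1.46-fold, close in size to that of THI20.

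The thiazole gene THI4 behaved differently in the 2 treated cultures. It read 6.10 and 6.19 in the controls, and 7.28 in CG-1521 replicate 1 but 5.88 in replicate 2. The first treated culture was thus above both controls and the second below both, and the mean difference of 0.44 has an interval that reaches far to either side of 0 (SE 0.46, 95% interval -0.78 to 1.65, limma adjusted p = 0.502). The gap of 1.39 between the treated arrays was among the widest on the array: 0.606% of all genes had a wider one, and the median was 0.17. Without replicate 1 the difference was -0.26, and without replicate 2 it was 1.13, so 1 culture decides its sign.

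THI7 encodes the thiamine transporter of the plasma membrane. It read 9.40 and 9.41 in the controls and 9.24 and 9.36 with CG-1521. Both treated values were lower, but the difference of -0.11 did not pass and its interval keeps it small, from -0.38 to 0.16 (limma adjusted p = 0.451).

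Of the regulators, THI3 was the one that passed. Thi3 resembles a pyruvate decarboxylase, binds thiamine diphosphate and works with the activators. THI3 read 9.60 and 9.83 in the controls and 9.27 and 9.24 with CG-1521. Both treated values were below both controls, and it fell by 0.46 on the log2 scale (SE 0.12, limma adjusted p = 0.0484), close to the threshold. That call ended whichever of the 4 arrays was left out, with limma adjusted p-values between 0.0762 and 0.286. THI2, the DNA-binding activator, read 5.01 and 5.53 in the controls and 5.30 and 5.10 with CG-1521. Its groups overlapped, with a difference of -0.07 (95% interval -0.60 to 0.47, limma adjusted p = 0.819). PDC2, the second activator, read 9.978 and 9.999 in the controls and 9.19 and 9.66 with CG-1521. It was lower in both treated cultures, by -0.56, and did not pass (SE 0.18, limma adjusted p = 0.0771).

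SNZ1 and SNO1 are neighbours in the genome that are transcribed away from each other, and encode the synthase and the glutaminase subunit of the enzyme that makes pyridoxal phosphate, the active form of vitamin B6. SNZ1 read 9.01 and 9.31 in the controls, and 10.14 and 9.51 with CG-1521. Both treated values were higher, replicate 1 by far the more, and the difference of 0.66 did not pass (SE 0.25, 95% interval 0.02 to 1.30, limma adjusted p = 0.106). SNO1 read 5.60 and 5.87 in the controls and 5.91 and 5.67 with CG-1521. Here the groups overlapped, with a difference of 0.06 (95% interval -0.34 to 0.45, limma adjusted p = 0.799). Without CG-1521 replicate 2 the difference of SNZ1 was 0.97, while without replicate 1 it was 0.35.

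In 8 of the 10 genes CG-1521 replicate 1 was above replicate 2, against 2775 of all 5449 genes, whose median gap was 0.007. Whether the 10 genes differ from all genes in this was not tested. The gap was wide in THI4 (1.39), SNZ1 (0.62) and THI21 (0.35). The 3 genes called higher had small gaps: 0.04 in THI13, 0.05 in THI6 and -0.12 in THI20. The test weighs a difference against the spread within groups, so small gaps among called genes follow in part from the rule. SNZ1 differed by more than THI6 or THI20, at 0.66, and was not called. Leaving out CG-1521 replicate 2 moved the differences of THI4, SNZ1 and THI21 to 1.13, 0.97 and 0.68. Leaving out replicate 1 moved them to -0.26, 0.35 and 0.33. The number of calls also shifted over all genes between these fits. The array carries 27 probesets named for poly-A spikes, which are control RNAs. Whether all of these RNAs were added, and in what amounts, was not checked. The medians of the 27 probesets were 8.63 and 7.97 in CG-1521 replicates 1 and 2, against 8.01 and 8.30 in the controls. The array's 18 hybridization spike probesets had medians of 12.24 and 12.00 with CG-1521, against 11.41 and 11.83 in the controls. The part of either set in these gaps, or in the differences between the groups, was not tested.

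**Figure D2:**
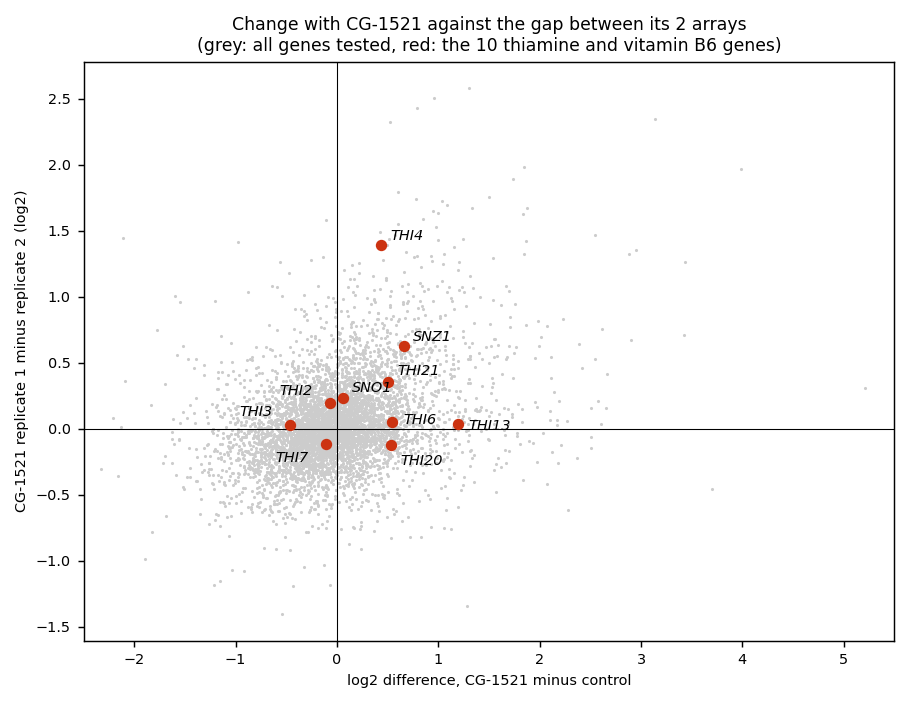
Each gene's log2 difference between CG-1521 and control (x axis) against the log2 gap between the CG-1521 arrays, replicate 1 minus replicate 2 (y axis), for all 5449 genes in grey and the 10 thiamine and vitamin B6 genes in red. THI13 combines the largest difference of the 10, 1.19, with a gap of 0.04, and THI4 stands out upward with a gap of 1.39.

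Around these genes, 9 of 12 further thiamine genes had a probeset, of which THI22 was the 1 that rose. Another 3 fell, 5 did not pass, and the median difference was -0.25, where 12.9% of all genes were higher and 16.8% lower. PHO3, the periplasmic acid phosphatase that frees thiamine from its phosphates and is repressed by thiamine, fell the furthest. It read 12.20 and 12.28 in the controls and 10.49 and 10.74 with CG-1521, far below. It fell by 1.62 on the log2 scale (SE 0.13, limma adjusted p = 0.00756). PHO3 lies directly beside PHO5, a closely related acid phosphatase gene, in the R64 gene order, and how far the PHO3 probes read PHO5 was not tested. THI80, the kinase that turns thiamine into thiamine diphosphate, read 10.19 and 10.20 in the controls and 9.37 and 9.69 with CG-1521, lower in both treated cultures (-0.66, SE 0.14, limma adjusted p = 0.0315). TPC1, the mitochondrial carrier of thiamine diphosphate, read 8.41 and 8.83 in the controls and 7.89 and 8.02 with CG-1521 (-0.67, SE 0.17, limma adjusted p = 0.0477). Its call ended whichever of the 4 arrays was left out. As among the 10 genes, 0 of the 9 calls in the 3 surrounding lists were made by limma without either control array, where 8 (without replicate 1) and 7 (without replicate 2) of the 25 measured genes had an unadjusted p under 0.05. With all 4 arrays, 12 of the 25 had an unadjusted p under 0.05 in limma, against 2437 of all 5449 genes. For the fits without a control array the share over all genes is not given here, so their unadjusted counts do not set these lists apart. The call of THI22 also ended without CG-1521 replicate 1.

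The remaining thiamine genes did not pass. The transporter-like THI72 stood at 0.43, PET18 at 0.58, THI73 at 0.00 and NRT1, a nicotinamide riboside transporter related to Thi7, at -0.25. PET18 had an uneven pair like that of SNZ1, at 9.68 and 8.96 with CG-1521 against 8.60 and 8.88 in the controls. Unlike in THI4, both treated values were above both controls. Without CG-1521 replicate 2 the differences were 0.56 in THI72, 0.94 in PET18 and -0.80 in PDC2. PDC2 passed with an intensity trend (limma adjusted p = 0.0444).

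Of 8 further vitamin B6 genes 6 had a probeset, and limma called 1 of them higher, 0 lower and 5 not at all. Over all genes 12.9% were higher and 16.8% lower, so counts this small do not set the list apart. The median difference was 0.25. None of the 6 was lower at an unadjusted p under 0.05. TPN1, the vitamin B6 importer, read 10.98 and 11.08 in the controls and 11.38 and 11.46 with CG-1521. The groups did not overlap and the rise was 0.39 (SE 0.10, limma adjusted p = 0.0494), a call that ended whichever array was left out and with a robust variance prior. The SNZ3 and SNO3 probesets carry the shared-probe suffix, SNZ2 and SNO2 having none of their own, and stood at 0.43 (limma adjusted p = 0.0787) and 0.22. Without CG-1521 replicate 2 the difference of SNZ3 was 0.59. PDX3, the oxidase that finishes the cofactor, stood at 0.27, and the kinase gene BUD16 and its relative BUD17 at -0.18 and -0.26.

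Among 10 genes for enzymes that use thiamine diphosphate the test called 2 higher and 2 lower and left 6 uncalled, against 12.9% higher and 16.8% lower over all genes; the median difference was 0.02. These shares are close to those of the whole array. PDC6, a minor pyruvate decarboxylase, read 6.04 and 6.01 in the controls and 7.85 and 7.31 with CG-1521, a clear separation (1.55, SE 0.20, limma adjusted p = 0.0126). PDC5, a second isozyme, rose by 0.58 (SE 0.12, limma adjusted p = 0.0265), from 8.28 and 8.38 to 8.999 and 8.82. PDC1, the main isozyme, did not pass, with a difference of -0.09 (95% interval -0.33 to 0.16). ILV2, acetolactate synthase of valine and isoleucine synthesis, read 10.40 and 10.44 in the controls and 9.51 and 9.89 with CG-1521, a difference of -0.72 (SE 0.16, limma adjusted p = 0.0317). KGD1, of the alpha-ketoglutarate dehydrogenase complex, read 8.08 and 8.34 in the controls and 7.65 and 7.67 with CG-1521 (-0.55, SE 0.13, limma adjusted p = 0.0371). Its call ended whichever array was left out, and with an intensity trend (limma adjusted p = 0.0502). The transketolases TKL1 (-0.20) and TKL2 (0.02), the pyruvate dehydrogenase subunits PDA1 (0.19) and PDB1 (0.02) and the decarboxylase ARO10 (0.53) did not pass, and the control values of ARO10 themselves lay 1.29 apart.

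**Figure D3:**
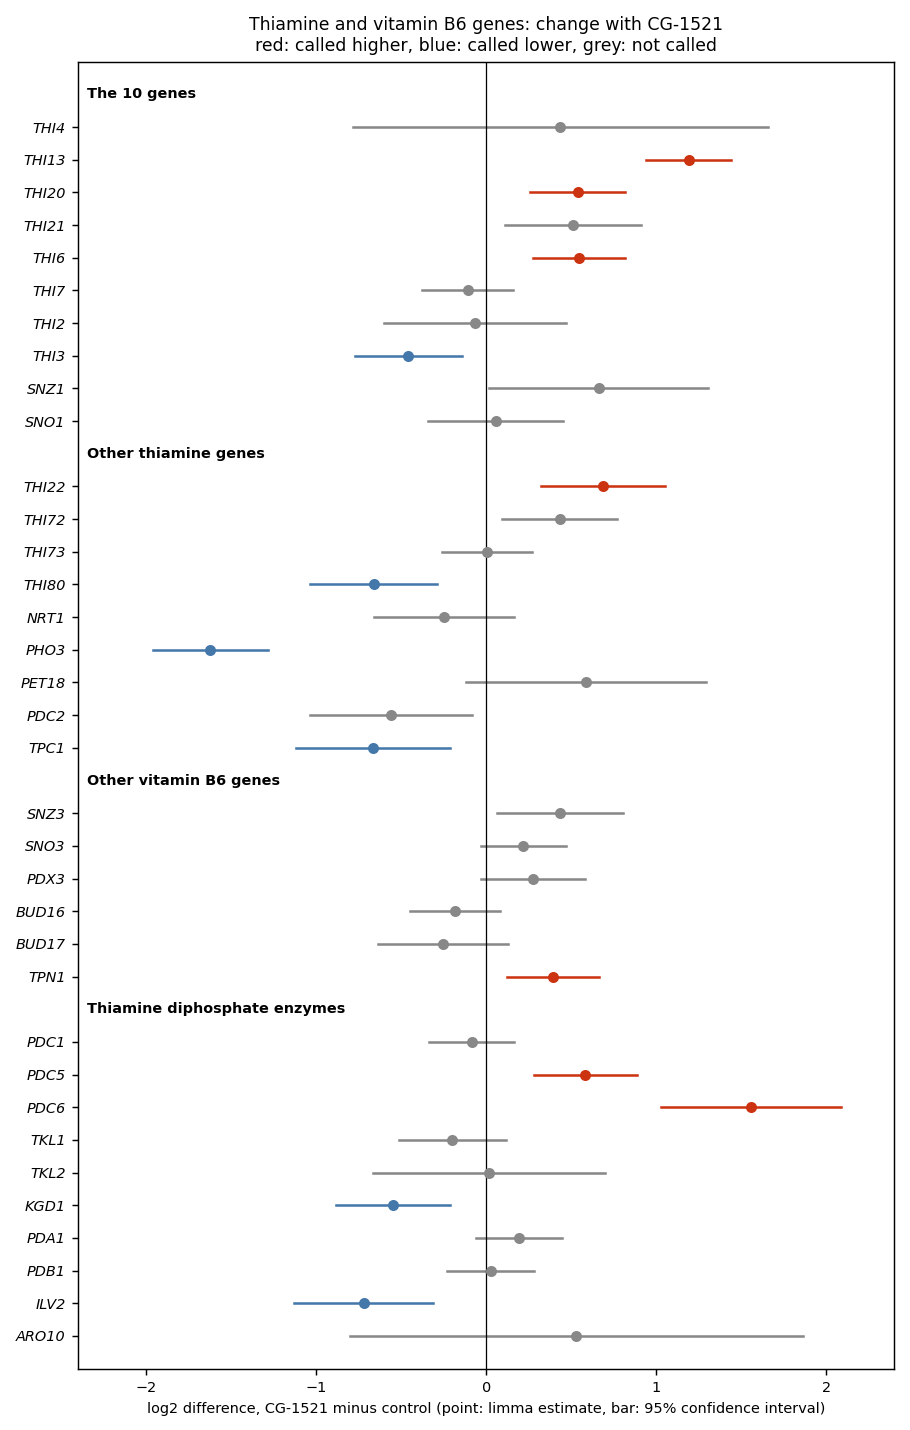
Log2 difference between CG-1521 and control for the 10 genes and the 25 measured genes of the 3 surrounding lists, with points for the limma estimates and bars for 95% confidence intervals; red marks genes called higher, blue genes called lower and grey those not called. Among the synthesis genes THI13, at 1.19, lies furthest to the right, PHO3, at -1.62, lies furthest to the left of all 35, and the bar of THI4 crosses 0.

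Outside these lists, the genes whose 4 centred array values were nearest to those of THI13 were TSA2, a peroxiredoxin, RDL1, a thiosulfate sulfurtransferase, and PBI1. Their Euclidean distances were 0.05, 0.05 and 0.06 log2 units over 4 arrays, and their differences were 1.15, 1.19 and 1.23. With 2 groups of 2 arrays, any gene with a like step between tight pairs comes out near THI13.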

How the data were processed

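The authors deposited log2 values, 1 column per array and 1 row per probeset, made with Affymetrix Expression Console and RMA per the submitters' processing notes. Their versions are not given in the sources used here, nor are the settings. Of 10928 probesets, 7244 had a single gene symbol, 1 had several and 3683 had none in the platform annotation. By gene identifier 5498 matched R64 genes, and the probeset with the highest 4-array mean was kept where 47 genes had several, leaving 5449 genes; 12 symbols were updated. Each of the 10 genes had 1 probeset, and no alias added another. Background came from 1746 probesets with a single gene symbol that matched no R64 gene. They were taken to be those of Schizosaccharomyces pombe, and their species was not read. The groups were compared in R 4.3.3 with limma 3.58.1 (lmFit, eBayes, no block), two-sided, with Benjamini-Hochberg adjustment over the 5449 genes; residual degrees of freedom were 2, and prior ones 2.69. The same fit was run on simulated arrays with independent noise of equal spread in both groups. The real groups differed in spread (median SD 0.08 in the controls and 0.12 with CG-1521), so that run does not test the calls. An exact permutation of 2 against 2 arrays cannot go below p = 0.333, so none was used. The number of arrays limits the precision (median SE 0.12).

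All 10 genes and every measured gene of the 3 surrounding lists could be named; a likeness search took the 3 genes nearest to the one with the largest difference. The genes and lists were chosen with earlier results of these data known. No promoter or protein sequences were used here, so the planned motif search was not run. Alternatives were a replicate block, each array left out, an intensity trend, a robust prior, all features, a background filter, a common array median and the mean of a gene's probesets.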

Additional observations from a re-analysis of the deposited data

How the results depend on the processing

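Counts are given as genes higher, genes lower, then of the 10 genes higher and lower, then further thiamine genes, further vitamin B6 genes and thiamine diphosphate enzymes called. The reported counts were 703, 917, 3, 1, 4, 1 and 4. With the replicate number as a block they were 369, 450, 1, 0, 1, 0 and 1; replicate deviations correlated at -0.26 across genes, and the labels do not say that numbers pair the cultures. Pairing the numbers crosswise, chosen after seeing the data, gave 842, 978, 5, 1, 4, 0 and 4. Fitting all features of the table gave 334, 444, 1, 0, 1, 0 and 1; it adjusts over 10928 features. Under the block and with all features, the 1 of the 10 genes called was THI13. A robust prior took the further vitamin B6 count to 0, with 2 at an unadjusted p under 0.05. Leaving out 1 array gave 50 to 1001 genes higher and 16 to 1133 lower, 0 to 6 of the 10 genes higher and 0 lower, 0 to 6 further thiamine genes, 0 to 1 further vitamin B6 genes and 0 to 3 enzymes. Where limma counts were 0, unadjusted p-values under 0.05 gave 1 of the 10 genes lower in both the block and the all-features fit, and 1 and 2 further vitamin B6 genes; with an array left out they gave 0 or 1 of the 10 genes lower. An intensity trend, a background filter, a common array median, which moved all differences by 0.02, and the mean of probesets kept each count within 1.5 times.

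Signs turned in 7 genes when 1 array was left out, none of them called: THI4 ran from -0.26 to 1.13, THI2 from -0.32 to 0.19, SNO1 from -0.082 to 0.19, THI73 from -0.036 to 0.042, TKL2 from -0.34 to 0.37, PDB1 from -0.014 to 0.063 and ARO10 from -0.12 to 1.17. THI13, PHO3 and PDC6 kept their calls in all settings in which single genes were followed, except those without a control array, where the limma adjusted p of THI13 was 0.0656 and 0.0584. With 3 arrays the lone array is assumed to vary like the other group.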
